A study of Mus musculus with 18 samples.

Results

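The IL-1 family of cytokines and receptors was followed through 18 RNA sequencing libraries, as 10 genes chosen by name: the receptor genes Il1rl1, Il1rap, Il1r1, Il1r2, Il18r1 and Il18rap, and the ligand genes Il33, Il18, Il1a and Il1b. They were read by symbol from each library's table, as 10 of 23284 symbols in the mouse tables and 10 of 25408 symbols kept from the human tables. All 18 libraries are labelled as BALB/c. Memory T helper 2 (Th2) cells selected for high ST2 were kept for 3 days in IL-2 alone (libraries 1, 3 and 5) or in IL-2 plus IL-33 (libraries 2, 4 and 6), so IL-2 was present in both groups. Cells labelled eosinophils were kept for 3 days without or with amphiregulin, an epidermal growth factor family ligand (libraries 2, 3 and 4 of each). Whole lung came from wild-type or dGATA animals (libraries 1, 2 and 3 of each), and both groups had received OVA according to their labels, whereas the series' design text names HDM for the lung. The labels call dGATA a knockout but do not name the altered gene or promoter. They do not say whether replicates were separate animals, cultures or donors, so p-values measure the spread between these libraries, which may be technical.

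IL-33 is an alarmin held in the nucleus of barrier cells and released on damage. It binds ST2, the product of Il1rl1, which then recruits the shared co-receptor encoded by Il1rap. The same co-receptor joins the IL-1 receptor (Il1r1) when IL-1α or IL-1β binds, whereas the type II receptor (Il1r2) binds IL-1 without a signalling domain and acts as a decoy. IL-18 uses a receptor pair of its own, Il18r1 and Il18rap. Signalling-competent receptors of this family pass the signal through MyD88 and IRAK kinases, and ST2 is a known surface marker of Th2 cells, mast cells and group 2 innate lymphoid cells.

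The label of each group was checked against marker genes. In the Th2 libraries all 9 Th2 markers had a mean of at least 1 FPKM. FPKM counts fragments per kilobase of gene model, scaled to library size. Of 6 eosinophil markers Prg2, Epx and Cebpe were listed at 0 in the Th2 libraries. The 6 summed to 0.670 to 1.73 FPKM with IL-2 and 5.82 to 8.02 FPKM with IL-33, and 1 of them, Ccr3, was higher with IL-33. The libraries labelled eosinophils are labelled mouse, but their tables hold human symbols and coordinates, so they were read as human. There the 8 eosinophil markers summed to 215 to 719 FPKM, below the 8 neutrophil markers at 6750 to 20500 FPKM and, in 4 of 6 libraries, below the 10 macrophage markers. In the lungs, the eosinophil markers summed to 21.4 to 33.3 FPKM in wild-type libraries and 6.48 to 9.29 FPKM in dGATA libraries, where Epx was listed at 0. Total depth is unknown. Relative depth varied between 0.669 and 1.34 among the Th2 libraries, 0.363 and 1.0 among the human libraries, and 0.582 and 1.0 among the lungs.

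Of the 6 receptor genes, 5 lie in a row on mouse chromosome 1 together with Il1rl2, the IL-36 receptor gene, all on the plus strand. In mm10 the deposited gene models run from Il1r2 (chr1:40084768-40125226) through Il1r1 (chr1:40225080-40316177), Il1rl2 (chr1:40324627-40365471), Il1rl1 (chr1:40439649-40465414) and Il18r1 (chr1:40465552-40500854) to Il18rap (chr1:40515362-40549297), a span of 465 kb. Il1rl1 ends 137 bases before Il18r1 starts. Il1rap stands alone at chr16:26581705-26725147. Among the ligands, Il1a (chr2:129299610-129309972) and Il1b (chr2:129364580-129371120) are neighbours on the minus strand, 54.6 kb apart, while Il33 lies at chr19:29925114-29960715 and Il18 at chr9:50565368-50581837. In the human tables the 6 receptor genes stand in the same order on chromosome 2, over 461 kb.

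The promoters of the 3 receptor genes that rose with IL-33, and of Il18, which fell, are shown as the 250 bases before the start of transcription (RefSeq, GRCm38.p6), so that the neighbouring genes can be compared at the sequence level. Il1rl1 has 2 annotated starts 10.1 kb apart, and both are given. The deposited Il1rl1 model begins at chr1:40439649, beside the proximal start, so the distal start lies 10.1 kb before that model. Of the 2 starts of Il1r1 the upstream one, where the deposited gene model begins, is given. The Il1r2 window lies inside its deposited model, which begins at chr1:40084768. The Il18 window lies before its deposited model, which begins at chr9:50565368, and does not adjoin it. Capitals mark GATA motifs, read on both strands and spelled AGATAA or AGATAG with either A or T as the first base. The windows were also searched on both strands for AP-1 motifs (TGANTCA) and NF-kB motifs (GGG, then any 2 bases, then TTTCC).
Il1rl1 distal start, chr1:40429320-40429569, plus strand: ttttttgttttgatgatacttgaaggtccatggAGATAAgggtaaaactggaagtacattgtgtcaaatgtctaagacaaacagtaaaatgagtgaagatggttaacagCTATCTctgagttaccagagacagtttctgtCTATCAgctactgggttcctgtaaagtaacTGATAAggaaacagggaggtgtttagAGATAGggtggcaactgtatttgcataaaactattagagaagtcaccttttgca
Il1rl1 proximal start, chr1:40439379-40439628, plus strand: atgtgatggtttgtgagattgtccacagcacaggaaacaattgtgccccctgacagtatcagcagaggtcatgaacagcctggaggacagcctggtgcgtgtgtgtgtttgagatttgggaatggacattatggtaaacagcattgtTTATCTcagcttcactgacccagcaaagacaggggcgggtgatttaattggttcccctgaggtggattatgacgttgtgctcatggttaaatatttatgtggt
Il1r2, chr1:40085843-40086092, plus strand: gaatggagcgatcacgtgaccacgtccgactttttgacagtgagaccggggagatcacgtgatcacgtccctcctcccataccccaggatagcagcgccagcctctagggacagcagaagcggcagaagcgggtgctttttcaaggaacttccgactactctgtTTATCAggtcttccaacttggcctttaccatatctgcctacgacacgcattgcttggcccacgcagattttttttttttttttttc
Il1r1, chr1:40224830-40225079, plus strand: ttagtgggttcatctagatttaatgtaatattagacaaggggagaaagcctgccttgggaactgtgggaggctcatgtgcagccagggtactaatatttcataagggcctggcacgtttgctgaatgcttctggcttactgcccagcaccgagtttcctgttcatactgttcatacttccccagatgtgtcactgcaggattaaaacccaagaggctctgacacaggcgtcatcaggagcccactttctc
Il18, chr9:50554450-50554699, plus strand: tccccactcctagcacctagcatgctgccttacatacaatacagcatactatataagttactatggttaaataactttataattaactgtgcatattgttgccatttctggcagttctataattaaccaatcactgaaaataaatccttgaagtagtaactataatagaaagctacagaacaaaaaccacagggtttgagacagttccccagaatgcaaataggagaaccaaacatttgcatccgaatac
The distal Il1rl1 window held 5 GATA motifs, of which the most upstream starts 217 bases and the nearest 54 bases before the start. The proximal window held 1, starting 103 bases upstream, and the Il1r2 window held 1, starting 86 bases upstream. None was found in the Il1r1 or Il18 windows shown. Among the windows not shown, those of Il18rap, which was not called in Th2 cells, and Il1b, listed at 0 there, held 1 GATA motif each. GATA factors bind such motifs, and GATA3 is the lineage factor of Th2 cells. Over 32841 promoter windows of the same length, 26.5% held at least 1 GATA motif and 14 windows, or 0.0426%, held 5 or more. The cut of 5 was taken from the distal Il1rl1 window itself, the highest count among the 15 windows of the 10 genes. This share is therefore no test of that window. AP-1 motifs were in 6.75% of windows and NF-kB motifs in 1.41%. Among the 15 windows of the 10 genes, the AP-1 search found 1 match, 12 to 6 bases before the Il1a start, and the NF-kB search found 0. These matches describe the letters in the windows and are not measured binding.

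**Figure D1:**
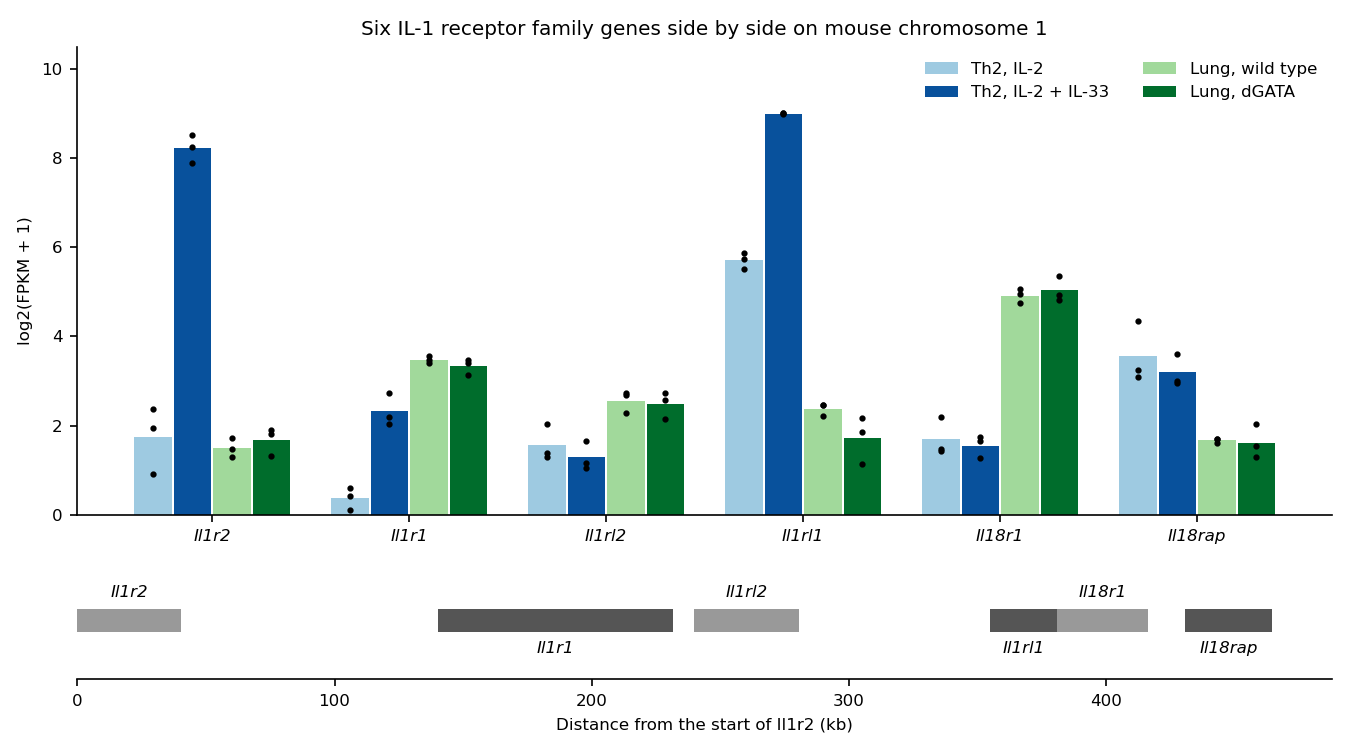
Upper panel, mean log2(FPKM + 1) of the 6 neighbouring receptor genes of mouse chromosome 1 in 4 groups of 3 libraries (bars start at 0, points are libraries); lower panel, the gene models drawn to scale by distance in kb from the start of Il1r2. Il1r2 and Il1rl1 carry the tall bars in Th2 cells with IL-33, while Il18r1, 137 bases beyond Il1rl1, is tallest in lung.

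Adjacent genes had different patterns. With IL-33 the Th2 libraries held 302.5 ± 63.7 FPKM of Il1r2 and 512.5 ± 6.09 FPKM of Il1rl1 (mean ± SD, n = 3), but 1.95 ± 0.488 FPKM of Il18r1. Lung showed the opposite order within this pair, with 29.3 ± 3.17 FPKM of Il18r1 and 4.203 ± 0.507 FPKM of Il1rl1 in wild-type libraries (n = 3).

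The ligand and the receptor of the IL-33 pathway had their highest levels in different samples. Il33 stood at 49.8, 61.7 and 60.4 FPKM in the wild-type lungs and 33.0, 88.4 and 64.6 FPKM in the dGATA lungs. In the Th2 libraries it did not exceed 0.250 FPKM, and it was listed at 0 in all 6 human libraries. The lung groups overlapped with each other and with no other group. The receptor was measured in all 6 groups, including the lungs. Il1rl1 was highest in Th2 cells with IL-33, then in Th2 cells with IL-2 alone, then in the human libraries (7.67, 24.8 and 24.4 FPKM without amphiregulin), then in wild-type lung and last in dGATA lung. Of these neighbours only the 2 human groups overlapped. The Th2 cells had been selected for high ST2, the product of Il1rl1. Their place above the other samples is therefore not independent of that selection. Il1rl1 gives rise to membrane-bound and soluble ST2, which the deposited gene-level values do not separate.

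Il1rap, needed by both IL-33 and IL-1, was much more even across samples. Its group means ran from 4.72 ± 1.63 FPKM in Th2 cells with IL-33 to 17.8 ± 2.65 FPKM in the human libraries with amphiregulin (n = 3 each). The latter group stood above the next one, mouse Th2 cells with IL-2 alone, without overlap but narrowly (14.8 against 14.1 FPKM at the closest). Mouse and human gene models differ, so this gap is no firm order. All lower neighbours overlapped. Il1r1 was highest in the human libraries with amphiregulin and in both lung groups, which overlapped, and lowest in Th2 cells with IL-2 alone at 0.306 ± 0.220 FPKM. Il1r2 was highest in Th2 cells with IL-33, with no overlap with the human libraries that followed. From there downwards the neighbouring groups overlapped.

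The IL-18 receptor subunits did not follow each other. Il18r1, the ligand-binding chain, was highest in lung (26.0 to 32.3 FPKM in wild type), intermediate in the human libraries and lowest in Th2 cells (1.40 to 3.57 FPKM over both groups). The Th2 libraries overlapped with no other group, while the highest human value, 27.6 FPKM, reached into the lung range. Il18rap, the accessory chain, was higher in the human and Th2 libraries than in lung. Its Th2 values ran from 6.73 to 19.4 FPKM and its lung values from 1.44 to 3.07 FPKM. Per library the ratio of Il18r1 to Il18rap was 0.184 to 0.302 in Th2 cells, 0.678 to 2.66 in the human libraries and 9.66 to 27.6 in lung. In whole lung, as in any bulk sample, fewer cells of a type and less RNA per cell cannot be told apart.

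Il1b, the inducible secreted IL-1, was listed at 0 in all 6 Th2 libraries, while it stood at 13.8 to 69.3 FPKM in the human libraries and 6.33 to 15.9 FPKM in the lungs. Il1a, which acts both inside cells and as an alarmin, was measured in every group. Its group means lay between 2.78 and 9.07 FPKM, and all neighbours in their order overlapped. Il18 means lay between 5.33 and 14.1 FPKM in 5 groups and at 0.0588 FPKM in Th2 cells with IL-33, without overlap. Tissue, culture and species differ between these groups and cannot be told apart.

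**Figure D2:**
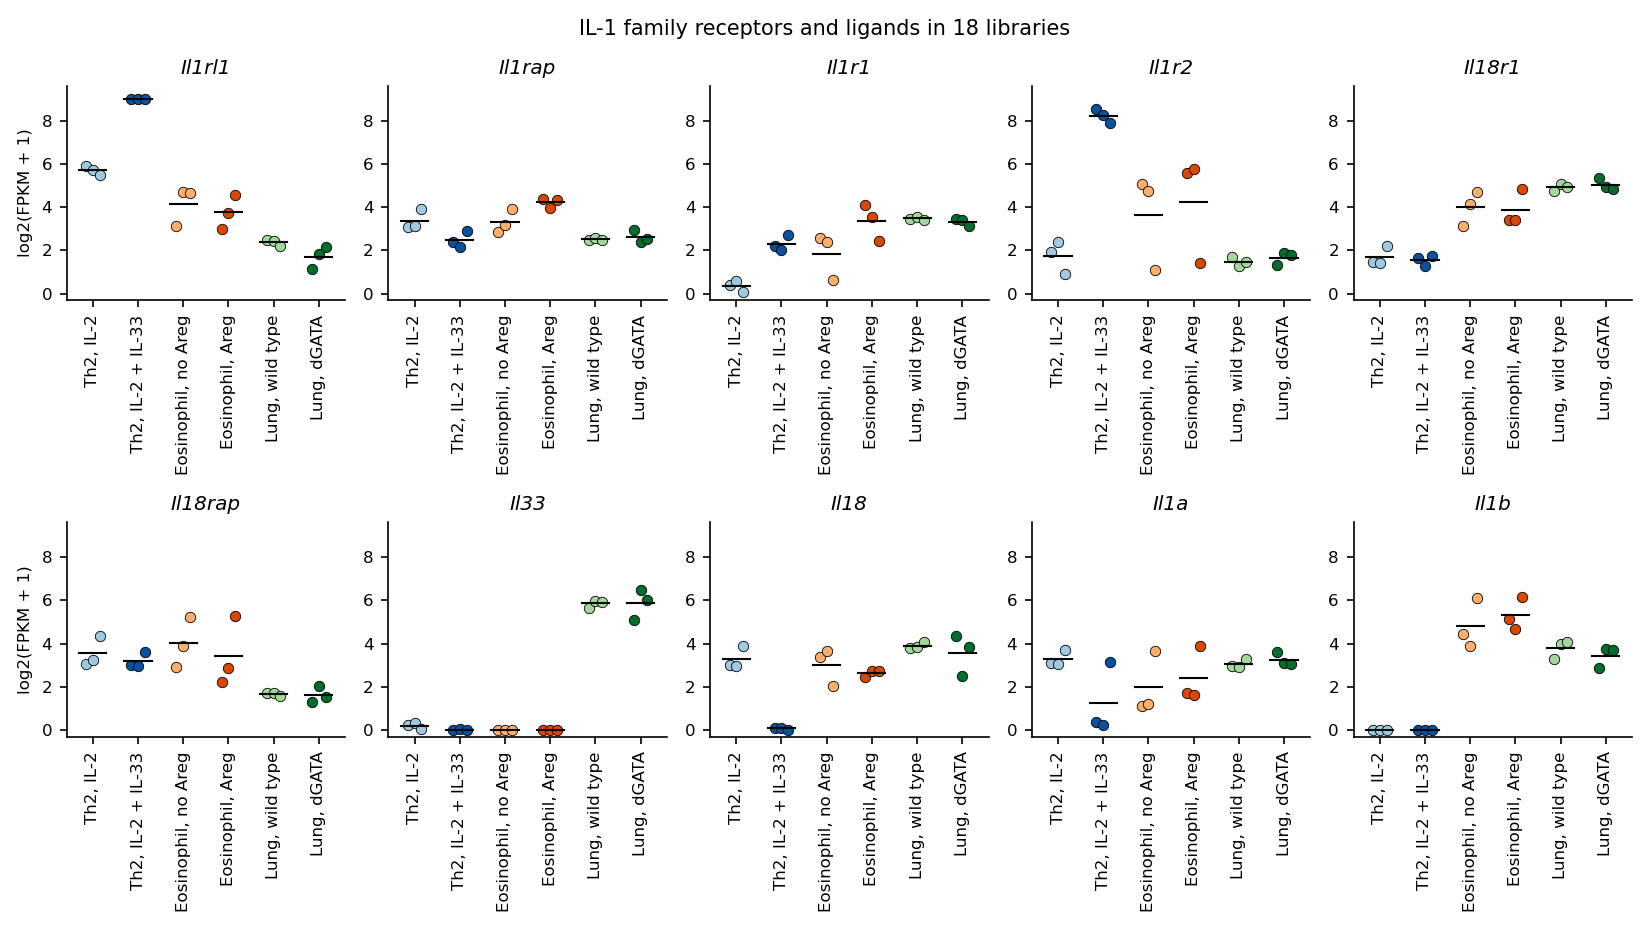
Level of each of the 10 genes, as log2(FPKM + 1), in the 18 libraries (points) of 6 groups, with the group mean as a line. Il33 is high in the lungs alone among these groups, Il1rl1 and Il1r2 are highest in Th2 cells with IL-33, and Il18 is lowest there.

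The first comparison asked what IL-33 added to IL-2 does to its own receptor family in Th2 cells that already carry ST2. Of the 10 genes, 8 passed the filter of 1 FPKM in 3 of 6 libraries and were tested. The receptor genes Il1rl1, Il1r1 and Il1r2 rose, while the co-receptor gene Il1rap and the ligand gene Il18 fell (limma on log2(FPKM + 1), adjusted p below 0.05 over all genes). The IL-18 receptor genes and Il1a were not called. These 5 calls are 5 of 8 tested genes, where 42.1% of the 10296 genes tested were called, 16.3% higher and 25.7% lower. The same 5 were the tested members whose groups did not overlap, a pattern seen in 56.7% of all genes tested. Of these 5, Il1r1 and Il18 passed the filter only through the group where they were higher. Their calls and lack of overlap are therefore not independent of the filter. The median log2 difference of the 8 genes was -0.26 and that of all tested genes -0.11. Values of IL-33 against IL-2 are on the log2(FPKM + 1) scale, which understates the change of genes with low levels.

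Il1rl1 stood at 57.9, 52.1 and 44.5 FPKM with IL-2 and at 517, 515 and 506 FPKM with IL-33. The groups were far apart, and the 3 libraries with IL-33 differed by little. Within a library, Il1rl1 moved from between ranks 1291 and 1739 of all symbols to between ranks 130 and 140. The log2 difference of 3.30 (SE 0.108) is the base for the comparisons with the other receptor genes that follow.

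Both IL-1 receptor genes rose as well. Il1r2 stood at 2.83, 4.21 and 0.885 FPKM with IL-2 and at 366, 303 and 239 FPKM with IL-33, without overlap. Its log2 difference was 6.48 (95% interval 5.63 to 7.33, means 115-fold apart; adjusted p = 4.13e-05, limma), and it climbed from between ranks 7908 and 10170 to between ranks 185 and 279. Il1r1, the signalling receptor, stood at 0.330, 0.513 and 0.0741 FPKM with IL-2 and at 3.55, 3.12 and 5.64 FPKM with IL-33. Il1r1 thus passed the filter of 1 FPKM only through the libraries with IL-33, so its test is not independent of that filter. It too rose without overlap, by 1.95 on the log2 scale (95% interval 1.45 to 2.45; adjusted p = 0.000681, limma), but from a level near 0 to a mean of 4.11 ± 1.35 FPKM.

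Il1rap went the other way. It stood at 7.44, 7.62 and 14.1 FPKM with IL-2 and at 4.23, 3.40 and 6.54 FPKM with IL-33, so the groups did not overlap, although library 5 lay well above the other two of its group. The mean with IL-33 was 2.06-fold lower and the log2 difference was -0.89 (95% interval -1.55 to -0.23; adjusted p = 0.0398, limma). This call was lost after rescaling to a common sum (adjusted p = 0.0575) or by median-of-ratios (0.0519), with no filter on low values (0.0861), and without library 2 (0.118), 3 (0.0569), 4 (0.131) or 5 (0.0779), while the sign stayed negative in each.

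Ratios between the receptor genes were read within each library from the same values. The decoy Il1r2 exceeded the signalling Il1r1 by 8.56, 8.21 and 11.9 times in the 3 libraries with IL-2. In those with IL-33 it did so by 103, 96.9 and 42.3 times. Il1r1 was at most 0.513 FPKM with IL-2, so the precision of those 3 ratios cannot be given. Il1rl1 exceeded its co-receptor Il1rap 7.78, 6.84 and 3.16 times with IL-2 and 122, 151 and 77.4 times with IL-33. For both pairs the groups did not overlap. For Il1rl1 and Il1rap this follows from their opposite changes without overlap given above, and is no separate result. In the lungs Il1r2 was below Il1r1 in all 6 libraries (ratio 0.132 to 0.323), and Il1rl1 was below Il1rap (0.178 to 0.976). The human libraries lay on both sides of equal level. Their ratio of IL1R2 to IL1R1 ran from 0.374 to 6.79 and that of IL1RL1 to IL1RAP from 0.36 to 3.1. The values below equal level were in libraries with amphiregulin.

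**Figure D3:**
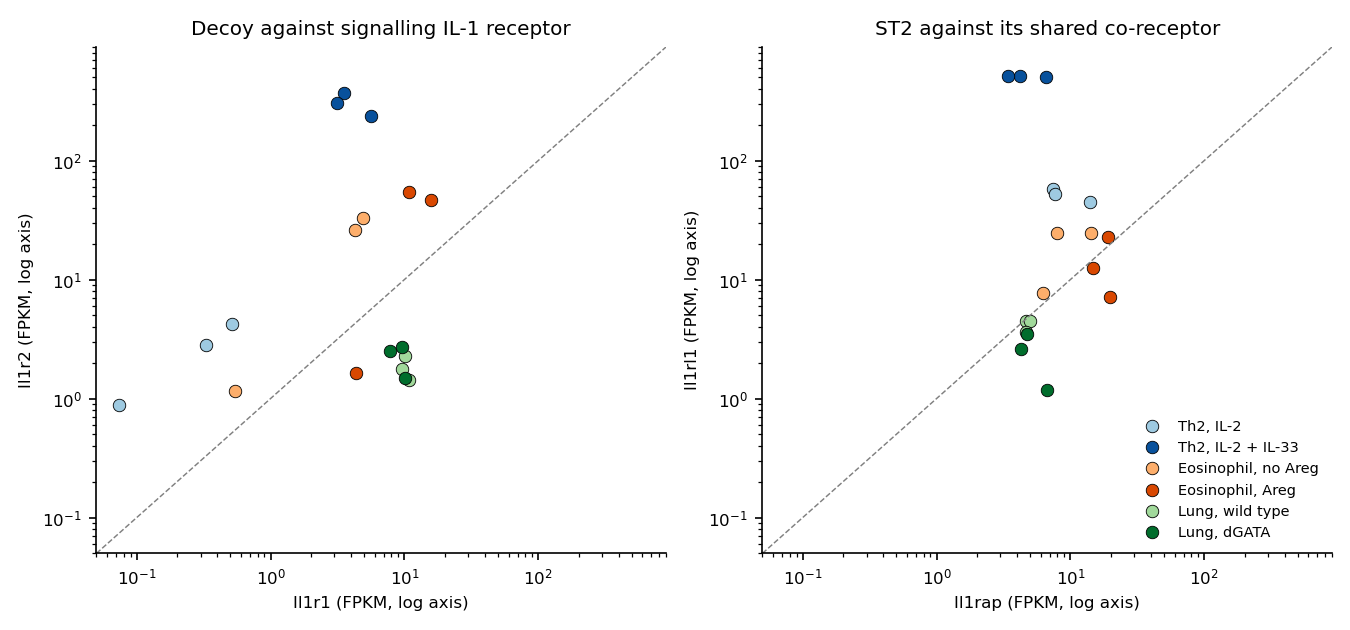
Left, Il1r2 against Il1r1 and right, Il1rl1 against Il1rap, each point a library, both axes in FPKM on a log scale, with the diagonal of equal level. Th2 cells with IL-33 lie farthest above the diagonal in both panels, and the lungs lie below it, as do some human libraries with amphiregulin.

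The IL-18 receptor genes next to Il1rl1 were not called. Il18r1 stood at 1.79, 1.69 and 3.57 FPKM with IL-2 and 2.13, 1.40 and 2.33 FPKM with IL-33 (log2 difference -0.15, 95% interval -0.70 to 0.40; adjusted p = 0.622, limma). Il18rap stood at 7.46, 8.49 and 19.4 FPKM with IL-2 and 7.06, 6.73 and 11.3 FPKM with IL-33 (log2 difference -0.37, 95% interval -1.19 to 0.45; adjusted p = 0.421, limma). In both genes the groups overlapped, and library 5 held the highest value.

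Among the ligands Il18 fell to near 0. It stood at 7.02, 6.82 and 13.7 FPKM with IL-2 and at 0.0847, 0.0916 and 0 FPKM with IL-33. Il18 thus passed the filter of 1 FPKM only through the libraries with IL-2, so its test is not independent of that filter. The log2 difference was -3.20 (95% interval -3.78 to -2.63; adjusted p = 0.000151, limma), negative in every alternative run. Il1a stood at 7.69, 7.25 and 12.3 FPKM with IL-2 and at 0.285, 0.180 and 7.86 FPKM with IL-33, so library 6 alone fell within the IL-2 range. It was not called (log2 difference -2.05, 95% interval -3.80 to -0.30; adjusted p = 0.0611, limma). Without library 6 the log2 difference was -3.00 (adjusted p = 0.000323), and without libraries 5 and 6 together it was -2.78 (adjusted p = 1.11e-06). Libraries 5 and 6 had the lowest relative depth of the Th2 libraries (0.669 and 0.737), their titles spell ST2 high differently, and their deviations from the group means correlated (r = 0.314). Other pairs of libraries across the 2 groups had r from -0.273 to 0.267, the highest being libraries 3 and 2. The labels do not say whether libraries 5 and 6 share a batch.

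Il33 and Il1b stayed below the filter. Il33 stood at 0.193, 0.250 and 0.0481 FPKM with IL-2 and 0, 0.0260 and 0 FPKM with IL-33 (exact two-sided permutation p = 0.1, the smallest that 3 against 3 libraries allow). Il1b was listed at 0 throughout.

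Markers of other cell types were examined beside these calls. The 8 mast cell and basophil markers, cells that also carry ST2, summed to at most 0.343 FPKM in any Th2 library, and Mcpt4, Tpsb2 and Ms4a2 were listed at 0 in all of them. The 10 macrophage markers summed to 4.94 to 11.3 FPKM, with C1qa and Marco at 0. The 5 regulatory T cell markers summed to 889 to 1380 FPKM with IL-2 and 3450 to 3610 FPKM with IL-33, where 3 and 4 of them had a mean of at least 1 FPKM and none was at 0 in every library of a group. They are Foxp3, Ikzf2, Il2ra, Ctla4 and Tnfrsf18, of which 3 passed the filter and 2 were called higher. The 2 below the filter reached 1 FPKM in fewer than 3 of the 6 libraries. How the sum divides among the 3 that passed is not given. The Th2 markers themselves summed to 9600 to 10400 FPKM with IL-2 and 14200 to 22700 FPKM with IL-33, so both lists moved with the receptor genes. The 6 eosinophil markers summed to 0.670 to 1.73 FPKM with IL-2 and 5.82 to 8.02 FPKM with IL-33, and the 1 of them that passed the filter, Ccr3, was called higher. The part of these lists in the result was not tested.

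**Figure D4:**
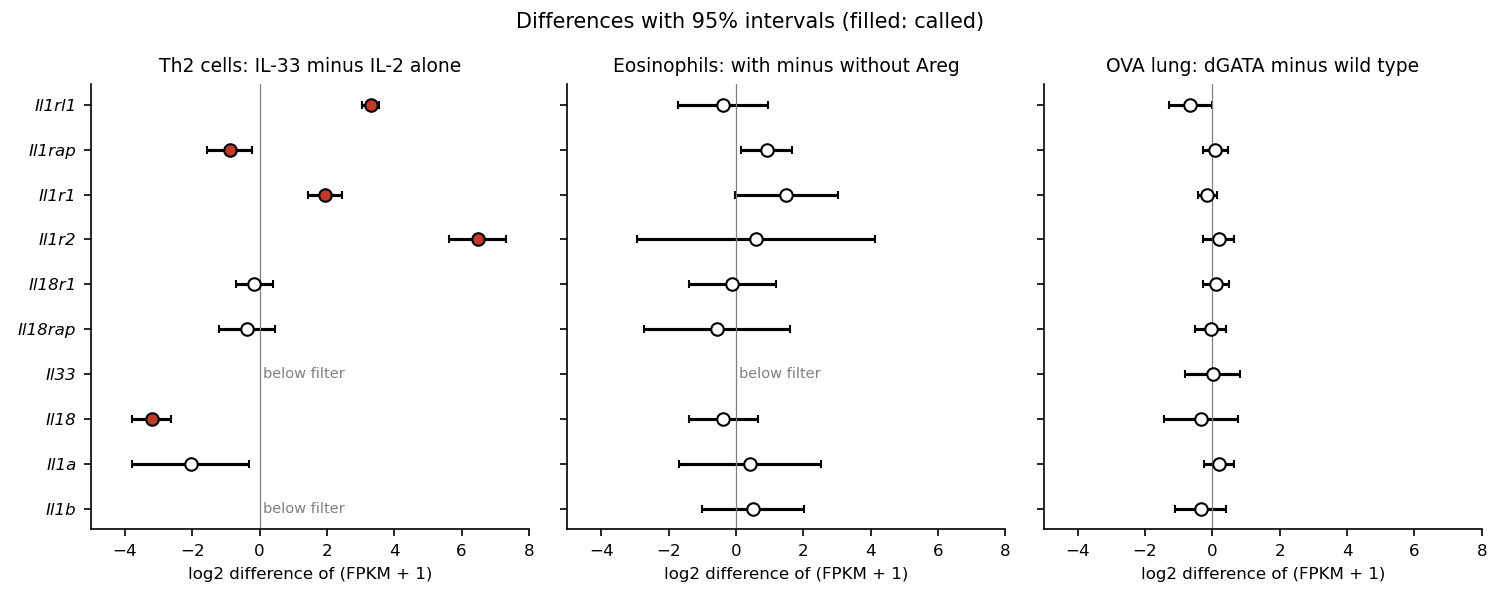
Log2 difference of (FPKM + 1) for each gene in the 3 comparisons, with 95% intervals from limma; filled points were called at an adjusted p below 0.05 over all genes. The calls are in the Th2 comparison: Il1rl1, Il1r1 and Il1r2 to the right of 0, Il1rap and Il18 to the left.

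The rest of the pathway was read from lists of its other genes. Of 7 other ligands and antagonists 1 was tested and it fell, where 25.7% of all genes tested were called lower. The other 6 were below the filter and were not tested. The gene that fell, Il18bp, encodes the soluble inhibitor of IL-18. It stood at 27.6, 31.4 and 31.4 FPKM with IL-2 and 3.04, 2.93 and 4.57 FPKM with IL-33 (log2 difference -2.80, SE 0.147; adjusted p = 3.27e-05, limma). The IL-18 gene and its inhibitor gene were thus both lower. Of 4 other receptor genes 2 were tested and 0 called. They are Il1rl2 (log2 difference -0.28; adjusted p = 0.366) and Sigirr, a single-domain inhibitory receptor, at 42.8 FPKM with IL-2 and 49.1 FPKM with IL-33 on average (adjusted p = 0.372).

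Of 12 proximal signalling genes, all tested, 2 rose and 2 fell. These 4 calls of 12 are a smaller share than the 42.1% called among all tested genes, and the list's median log2 difference of -0.10 lies at that of all genes, -0.11. Irak3, an IRAK without kinase activity that restrains MyD88 signalling, rose from 1.57, 1.89 and 0.972 FPKM to 4.49, 4.40 and 9.08 FPKM (log2 difference 1.45, SE 0.268; adjusted p = 0.00588, limma). Traf6, the ubiquitin ligase downstream of IRAKs, rose from a mean of 23.1 to 30.55 FPKM (adjusted p = 0.0114). Myd88, the adaptor itself, fell from 42.3 to 30.65 FPKM (adjusted p = 0.00734), and Tab1, a partner of the kinase TAK1, fell from 8.09 to 4.435 FPKM (adjusted p = 0.00827). The other 8, among them Irak1, Irak2 and Irak4, were not called.

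Of 8 inflammasome and processing genes 7 were tested, of which 1 rose and 3 fell, beside 42.1% of all tested genes called. The median log2 difference was -0.34, against -0.11 for all genes. Casp1, the protease that matures IL-1β and IL-18, stood at 41.8, 44.8 and 46.2 FPKM with IL-2 and 10.3, 8.79 and 17.95 FPKM with IL-33 (log2 difference -1.82, SE 0.231; adjusted p = 0.00129, limma). Casp4, the sensor caspase for intracellular lipopolysaccharide, fell from 69.2 to 30.2 FPKM (adjusted p = 0.00124), and Aim2, a DNA sensor, fell from 11.3 to 7.18 FPKM (adjusted p = 0.0166). Casp8, a caspase of death receptor signalling, rose from 70.0 to 110.4 FPKM (adjusted p = 0.00113).

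**Figure D5:**
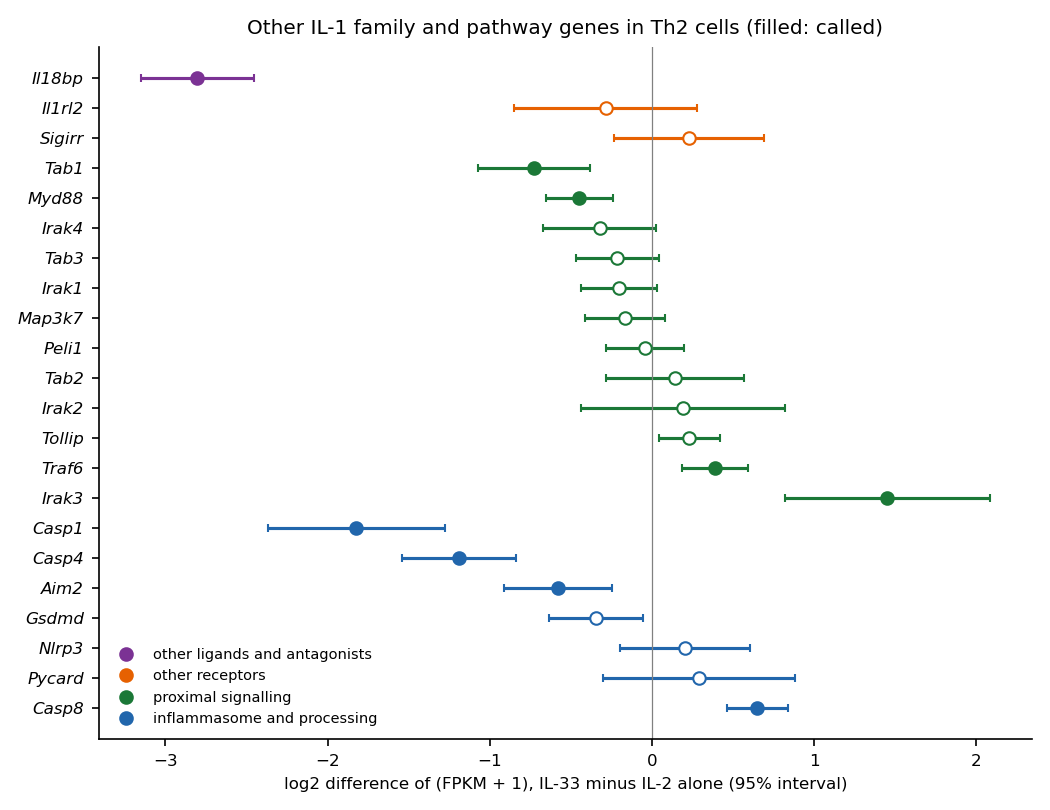
Log2 difference of (FPKM + 1) of the other IL-1 family and pathway genes tested in Th2 cells, IL-33 minus IL-2 alone, with 95% intervals and coloured by list; filled points were called. Il18bp and Casp1 lie farthest to the left and Irak3 farthest to the right.

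The second comparison concerned amphiregulin and the libraries labelled eosinophils. Of the 10 genes 9 were tested and 0 were called without a block for the library number (adjusted p = 0.999 for each, limma; 1 of the 9, IL1RAP, had an unadjusted p below 0.05). Across all 12616 genes tested 0.206% were called. Library number 4 differed from 2 and 3 in both groups, and libraries of equal number deviated together, so a second fit that blocked on the number is also given. In it 1.12% of all genes were called, 0.531% higher, and IL1R1 was the member called, higher with amphiregulin.

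IL1R1 stood at 4.88, 4.28 and 0.540 FPKM without and at 15.9, 10.8 and 4.38 FPKM with amphiregulin, in the order of libraries 2, 3 and 4. It was higher in 3 of 3 pairs, but the groups overlapped because library 4 was the lowest of each. The log2 difference was 1.497 (SE 0.229; adjusted p = 0.0377 with the block, limma). The call was lost with the block after rescaling to a common sum (adjusted p = 0.0721), without pair 2 (0.0817) and without pair 3 (0.134). Without pair 4 it held (log2 difference 1.34, adjusted p = 0.00401).

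IL1RAP stood at 6.24, 7.997 and 14.2 FPKM without and at 19.6, 14.8 and 19.1 FPKM with amphiregulin. It was the 1 member of 9 whose groups did not overlap, where 6.7% of all tested genes did not overlap, and 3.61% with the amphiregulin group higher. Its log2 difference was 0.91 (95% interval 0.320 to 1.498 with the block and 0.15 to 1.67 without it), with an adjusted p of 0.198 with the block and 0.0127 with the block and without pair 4. IL1R2 stood at 33.1, 26.0 and 1.15 FPKM without and 46.3, 54.2 and 1.64 FPKM with amphiregulin. It was higher in 3 of 3 pairs, with a log2 difference of 0.60 and a 95% interval from 0.10 to 1.10 with the block (adjusted p = 0.337, limma), and from -2.94 to 4.14 without it.

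IL1RL1, the ST2 gene, stood at 7.67, 24.8 and 24.4 FPKM without and at 7.07, 12.4 and 22.7 FPKM with amphiregulin (log2 difference -0.38, 95% interval -0.92 to 0.16 with the block and -1.72 to 0.96 without it). It was lower with amphiregulin in each pair, but the groups overlapped almost fully. IL18R1 ran from 7.75 to 27.6 FPKM and IL18RAP from 3.65 to 37.8 FPKM over the 6 libraries, and both were highest in number 4 of either group. Among the ligands IL1B stood at 21.1, 13.8 and 68.4 FPKM without and 34.8, 24.6 and 69.3 FPKM with amphiregulin. IL1A was likewise highest in number 4 (11.8 and 14.0 FPKM, against 1.21 to 2.32 FPKM in numbers 2 and 3). IL18 lay between 3.19 and 11.6 FPKM, with overlapping groups.

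The marker lists of these libraries moved too. Macrophage markers, 10 of 10 detected, summed to 3610, 3500 and 520 FPKM without and 1100, 1530 and 319 FPKM with amphiregulin, lowest in number 4 of each group. The 6 dendritic cell markers summed to 147 to 263 FPKM without and 350 to 438 FPKM with amphiregulin, with no overlap. Mast cell and basophil markers summed to 210, 577 and 103 FPKM without and 124, 322 and 70.5 FPKM with amphiregulin. Neutrophil markers summed to 20500, 10600 and 8070 FPKM without and 13800, 9670 and 6750 FPKM with it. Both lists were lower in each pair, whereas eosinophil markers (366, 215 and 719 against 362, 262 and 410 FPKM) were higher in number 3. The part of these lists in the values of IL1R1, IL1RAP and IL1RL1 was not tested. Among the other pathway genes 0 were called without the block. With it the IL-1 receptor antagonist gene IL1RN was called higher, from 135.0, 179.5 and 10.8 FPKM to 373, 518 and 59.3 FPKM (log2 difference 1.78, SE 0.223; adjusted p = 0.0193, limma; 0.155 without pair 3), and 0 genes of the receptor, signalling and processing lists were.

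The third comparison set dGATA lungs against wild-type lungs after OVA. All 10 genes were tested and 0 were called, with adjusted p between 0.723 and 0.998 (limma; Il1rl1 alone had an unadjusted p below 0.05). Across all 13727 genes tested 0.0947% were called. The ligand Il33 did not pass the test, with means of 57.3 ± 6.54 FPKM in wild type and 62.0 ± 27.8 FPKM in dGATA (n = 3 each). Its log2 difference was 0.01 with a 95% interval from -0.82 to 0.84, and was 0.40 without dGATA library 1 (adjusted p = 0.307) and -0.30 without dGATA library 2 (adjusted p = 0.779). Library 1 held the lowest value of the 6 lungs, while the other two dGATA values, 88.4 and 64.6 FPKM, lay above all 3 wild-type values.

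Il1rl1 was the member with the lowest p. It stood at 4.52, 4.47 and 3.62 FPKM in wild-type and at 1.19, 2.63 and 3.50 FPKM in dGATA lungs, so the groups did not overlap, by a narrow margin. The log2 difference was -0.66 (95% interval -1.30 to -0.01; adjusted p = 0.723, limma), or -0.36 without dGATA library 1 (adjusted p = 0.286). Groups that do not overlap were found for 1 of 10 members and for 14.1% of all genes tested, and with dGATA lower for 9.86%.

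Cell markers moved beside it. Eosinophil markers summed to 33.3, 30.9 and 21.4 FPKM in wild-type and 7.39, 6.48 and 9.29 FPKM in dGATA libraries. Mast cell and basophil markers summed to 60.7 to 76.3 FPKM in wild-type and 52.7 to 58.5 FPKM in dGATA libraries. In dGATA library 1, which held the least Il1rl1, Th2 markers summed to 29.8 FPKM against 51.0 to 86.0 FPKM in the other 5 lungs, and dendritic cell markers to 37.0 FPKM. The part of these differences in the Il1rl1 values was not tested.

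The remaining lung members had overlapping groups. Il18 varied most in the dGATA lungs, at 19.6, 4.67 and 13.5 FPKM, against 13.0, 13.3 and 15.9 FPKM in wild type. Il1b stood at 8.64, 15.1 and 15.9 FPKM in wild type and 6.33, 12.4 and 12.01 FPKM in dGATA. For Il1r1 the values were 10.02, 10.9 and 9.58 FPKM in wild type and 10.1, 9.55 and 7.74 FPKM in dGATA. Intervals of the log2 difference were narrowest for this gene (-0.42 to 0.13). Of the other pathway lists 0 genes were called in lung.

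Genes with the most similar pattern were listed by Pearson correlation of log2(FPKM + 1). For Il1rl1 over the 12 mouse libraries, among 14148 genes, these were Ncoa3 (r = 0.995), Tarbp2 (0.994), Afg3l2 (0.994), Ecm1 (0.993) and Ikzf4 (0.992). For Il33 they were Cybb, Gda, Tnfaip2, Tyrobp and Fcer1g (each 0.999), genes that separate lung from the cultured T cells. For IL1RL1 over the 6 human libraries, among 12616 genes, they were KATNA1 (0.987), FNBP1L (0.986), VPS53 (0.972), U2AF1L4 (0.969) and IP6K2 (0.966). The mouse points fall into lung and Th2 clusters, and the human points share library numbers, so these values describe likeness alone.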

How the data were processed

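RNA-seq libraries were made with a stranded mRNA kit from TRIzol-extracted total RNA, per the labels' protocols. The deposited tables hold FPKM per gene. The submitters' processing notes name Bowtie 0.12.8, TopHat 1.3.2, Cufflinks 2.0.2 and mm10. For the human tables the sources used here give no build. The files used here hold no read counts, so total depth is unknown and count models were not used.

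Groups came from the titles. FPKM was summed per symbol (240 mouse and 45 human symbols have several entries; each of the 10 genes has 1), and 140 human symbols were left out because they are Y-linked or belong to X inactivation. Small RNA features held 12.1 to 21.4% of all FPKM in Th2, 20.0 to 38.4% in human and 4.01 to 5.13% in lung libraries. A separate fit was made on the 6 libraries of each comparison, with genes at 1 FPKM or more in at least 3 libraries (2 when a library was left out), log2(FPKM + 1), limma 3.58.1 with trend in R 4.3.3, Benjamini-Hochberg adjusted p below 0.05 over all genes. Members below the filter were compared by exact permutation (scipy 1.17.1) unless listed at 0 throughout. Other genes below the filter were not tested. The fit without a block was also run on simulated data with independent noise in each library. Those data held no deviations shared by libraries of equal number, and their outcome is not used here.

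The members, lists and comparisons were chosen with earlier results of these data known. All 10 members were named whatever their result, up to 4 called genes with the smallest p of each other list, and the 5 genes most correlated with Il1rl1, Il33 and IL1RL1. Ccr3, Sigirr, Il1rl2 and the uncalled signalling genes were named as remaining list members after their values were seen.

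Human libraries of equal number deviated together from their group means (r = 0.399, 0.356 and 0.669), so the labels' numbers were treated as pairs and the replicate block is given beside the planned fit. Numbers 2 and 3 also correlated with each other (0.308 and 0.280). Alternatives were other pseudocounts (0.1 and 0.5), filters (none, 5 FPKM), scalings, the largest entry per symbol, no trend, a fold threshold, each library left out, replicate blocks and a fit over the 12 mouse libraries. Leaving out Th2 libraries 5 and 6 or a human pair, and the block with a common sum, were chosen after seeing the data. Promoters came from RefSeq (GRCm38.p6), matched by symbol for 10 of 10 mouse genes.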

Additional observations from a re-analysis of the deposited data

How the results depend on the processing

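Across the 27 member results with a test, 534 of 550 values under the alternatives kept their direction and side of the threshold, or their lack of a call, 8 lost a call, 8 gained one and 0 called values changed sign. In Th2 cells the 3 receptor genes called higher kept their calls in every alternative in which they were tested. The number called lower, 2 as reported, was 1.0 with no filter, after rescaling to a common sum, by median-of-ratios and with a log2 difference of at least 1 required, in each of which Il1rap was lost, and ranged from 1.0 to 3.0 with 1 library left out. It was 3.0 without library 6, where Il1a was called. Il1a was also called without libraries 5 and 6, without small RNA features (adjusted p = 0.0486) and in the fit over 12 mouse libraries (0.0260). The cause was not tested. Over all Th2 genes, 1680 were higher and 2651 lower as deposited, 2048 and 1636 after rescaling to a common sum, and 2193 and 1832 by median-of-ratios, where the median difference of all genes moved from -0.11 to 0.0038 on the log2 scale. Requiring a log2 difference of at least 1 left 514 and 419, and leaving out library 4 left 1217 and 1516. Rescaling to a common sum moved the median of all genes from 0.02 to 0.20 in the human libraries and from -0.03 to -0.13 in lung. In the human libraries the number of members called higher, 0 without a block, was 1.0 with the replicate block, 1.0 with the block and no small RNA features, and 2.0 with the block and pair 4 left out. All genes called there numbered 4 higher and 22 lower without the block and 67 and 74 with it. Without the block they ranged from 3 higher and 0 lower (no small RNA features) to 62 and 24 without library 4 of the amphiregulin group and 140 and 93 without pair 4. With the block they were 128 and 75 without small RNA features, 7 and 14 without pair 3 and 505 and 304 without pair 4. In lung the calls over all genes were 6 higher and 7 lower, 19 and 74 in the fit over 12 mouse libraries, 3 and 2 without dGATA library 3, 10 and 9 without dGATA library 1, and 2 and 1 with the replicate block. In lung the deviations of same-numbered libraries were negatively correlated (r = -0.286, -0.116 and -0.243), so the numbers were not taken as pairing, and the block changed no member call (adjusted p = 1.0 for each). Th2 groups share no replicate number, so no block was fitted there. In the human and lung comparisons no member was called in any fit without a block. The precision of levels near 0 FPKM, as for Il18, Il33 and Il1r1 in Th2 cells, cannot be given without the depth.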
